A study of Mus musculus with 4 samples.

Results

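Pericyte and smooth muscle transcripts were followed in sorted satellite cells, the stem cells that lie beside skeletal muscle fibres, from mice with the calcitonin receptor gene Calcr deleted in them and from controls. The members were all probe sets on the array whose annotated gene symbol is one of 10 mural cell markers: Rgs5, Kcnj8, Abcc9, Pdgfrb, Cspg4 and Mcam for pericytes, and Acta2, Myh11, Tagln and Cnn1 for smooth muscle. All 10 genes were present, with 20 probe sets of the 45101 on the array. Calcr conditional knockout (cKO) cells came from Pax7-CreERT2 mice with Calcr flox/flox and Rosa-YFP, and control cells from Pax7-CreERT2, Rosa-YFP mice with Calcr+/+. In both groups the Cre recombinase is driven from the Pax7 locus and depends on tamoxifen, all mice received tamoxifen, the age given is 10 weeks, and cells positive for YFP were taken by sorting 2 weeks after tamoxifen and were not cultured. Each group held 2 samples, called biological replicates 1 and 2 in the titles, on 1 array each. The labels used here do not say how many mice a sample pooled or what a replicate number stands for, so p-values measure only the spread between these samples, which may be technical.

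Mural cells wrap the endothelial tube: pericytes lie on capillaries and smooth muscle cells on arteries and veins. Pericytes are kept by PDGF-BB from endothelial cells acting on the receptor encoded by Pdgfrb, and are known by Rgs5, an inhibitor of G protein signalling, and by an ATP-sensitive potassium channel built from the Kcnj8 pore and the Abcc9 sulphonylurea receptor. Smooth muscle cells are known by proteins of the contractile apparatus: the actin Acta2, the myosin heavy chain Myh11, and the actin-binding proteins transgelin (Tagln) and calponin (Cnn1). None of these cells is a satellite cell, and a sort for YFP driven through Pax7 should leave them out. Contractile genes such as Acta2 and Tagln are also known to be expressed by cultured and activated myogenic cells and by fibroblasts, so they are less specific than Rgs5 or Kcnj8.

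Smooth muscle genes are regulated by serum response factor through the CArG box, a 10-base element of an A/T run between CC and GG. Promoters of 7 of the 10 member genes were found in the RefSeq promoter table (build GRCm38.p6), and the 250 bases before the start site were searched. Of the smooth muscle members only Acta2 and Cnn1 were among them, the rest being pericyte members. Myh11, Tagln and Pdgfrb were not searched. An exact CArG box was in 0 of the 7, against 1.47% of all 32851 promoters, and a box with at most 1 other letter in the A/T run was in 1 of the 7, Acta2, against 8.59% of all promoters. The element reads the same way on both strands. Acta2 held 2 such elements, their first bases lying 84 and 34 bases before the start site used in the table. Acta2 is shown because its signal did not follow the replicate number, and Rgs5 and Kcnj8 because theirs did. The windows are chr19:34255374-34255623 on the minus strand, chr1:169655251-169655500 on the plus strand and chr6:142571615-142571864 on the minus strand, printed 5′ to 3′ with the 2 elements in capitals.
Acta2: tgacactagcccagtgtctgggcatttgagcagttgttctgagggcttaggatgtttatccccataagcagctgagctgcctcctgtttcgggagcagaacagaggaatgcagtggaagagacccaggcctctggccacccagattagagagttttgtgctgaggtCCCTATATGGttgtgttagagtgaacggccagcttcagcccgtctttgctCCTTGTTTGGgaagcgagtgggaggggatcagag
Rgs5: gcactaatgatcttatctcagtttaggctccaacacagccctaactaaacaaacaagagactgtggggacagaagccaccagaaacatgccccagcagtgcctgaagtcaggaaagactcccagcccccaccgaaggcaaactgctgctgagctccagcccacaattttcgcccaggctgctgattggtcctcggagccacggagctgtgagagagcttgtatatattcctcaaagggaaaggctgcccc
Kcnj8: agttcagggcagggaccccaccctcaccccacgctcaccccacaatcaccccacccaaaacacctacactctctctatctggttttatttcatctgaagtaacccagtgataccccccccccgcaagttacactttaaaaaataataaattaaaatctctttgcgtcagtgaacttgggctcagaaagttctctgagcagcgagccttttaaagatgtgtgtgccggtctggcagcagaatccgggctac
These matches are descriptions of letters in 1 window a gene. The longer RefSeq spans of Acta2 and Cnn1 reach into their windows, and the window of Abcc9 lies wholly inside its longer RefSeq span.

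Calcr, the targeted gene, read 568 and 684 on the cKO arrays and 1268 and 1424 on the control arrays, so the groups did not overlap and the difference ran in the direction of the labels. Its log2 difference was -1.11 (SE 0.25), with an unadjusted limma p of 0.00292 that did not pass over all probe sets (limma adjusted p = 0.99999). It has 1 probe set, and whether that falls in the floxed stretch is unknown here. The satellite cell markers Pax7 and Myf5 were bright on every array. Pax7, the defining transcription factor, read 2170 and 2434 in cKO cells against 2319 and 3647 in control cells, and Myf5, a myogenic factor, 1878 and 2843 against 2028 and 3002. Not all were as bright: the lowest signal in a list of 16 satellite cell genes was 91.3. Array medians ran from 57.9 (cKO replicate 2) to 70.4 (control replicate 1), the 3'/5' ratio of the Gapdh control probe sets from 1.54 to 1.71, and 4 arrays in all limit the precision.

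Of the 6 pericyte member genes 5 were at least 2-fold higher on the arrays numbered 1 than on those numbered 2, in both genotypes. Of 26 further pericyte genes, described below, 9 were. A probe set was said to follow the number when replicate 1 was at least 2-fold above replicate 2 in cKO and in control cells alike. Of the 20 member probe sets 13 did so and 0 ran the other way, where 5.36% of all 45037 probe sets other than controls followed the number upward and 1.72% downward. Taken by the brightest probe set of each gene, 7 of 10 genes followed the number, namely Rgs5, Kcnj8, Abcc9, Pdgfrb, Cspg4, Myh11 and Cnn1, against 4.96% of 18193 genes. The 3 that did not were Mcam, Acta2 and Tagln. In cKO cells alone 14 of the 20 were at least 2-fold higher on replicate 1 (17.5% of all probe sets), and in control cells alone 15 (13.3%). Both arrays numbered 1 were above both numbered 2 for 17 of the 20, against 25.2% of all. Of the 15 member probe sets that passed the filter on low signals 12 followed the number, against 2.9% of all that passed. Across the 13 probe sets, which belong to those 7 genes, 10 had the larger difference in control cells and 3 in cKO cells. Probe sets of 1 gene share their transcript, so these are not 13 separate results. With 1 array for each number and genotype, no difference within a genotype or between the genotypes was tested. In whole samples, fewer cells of a type and less RNA per cell cannot be told apart.

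**Figure D1:**
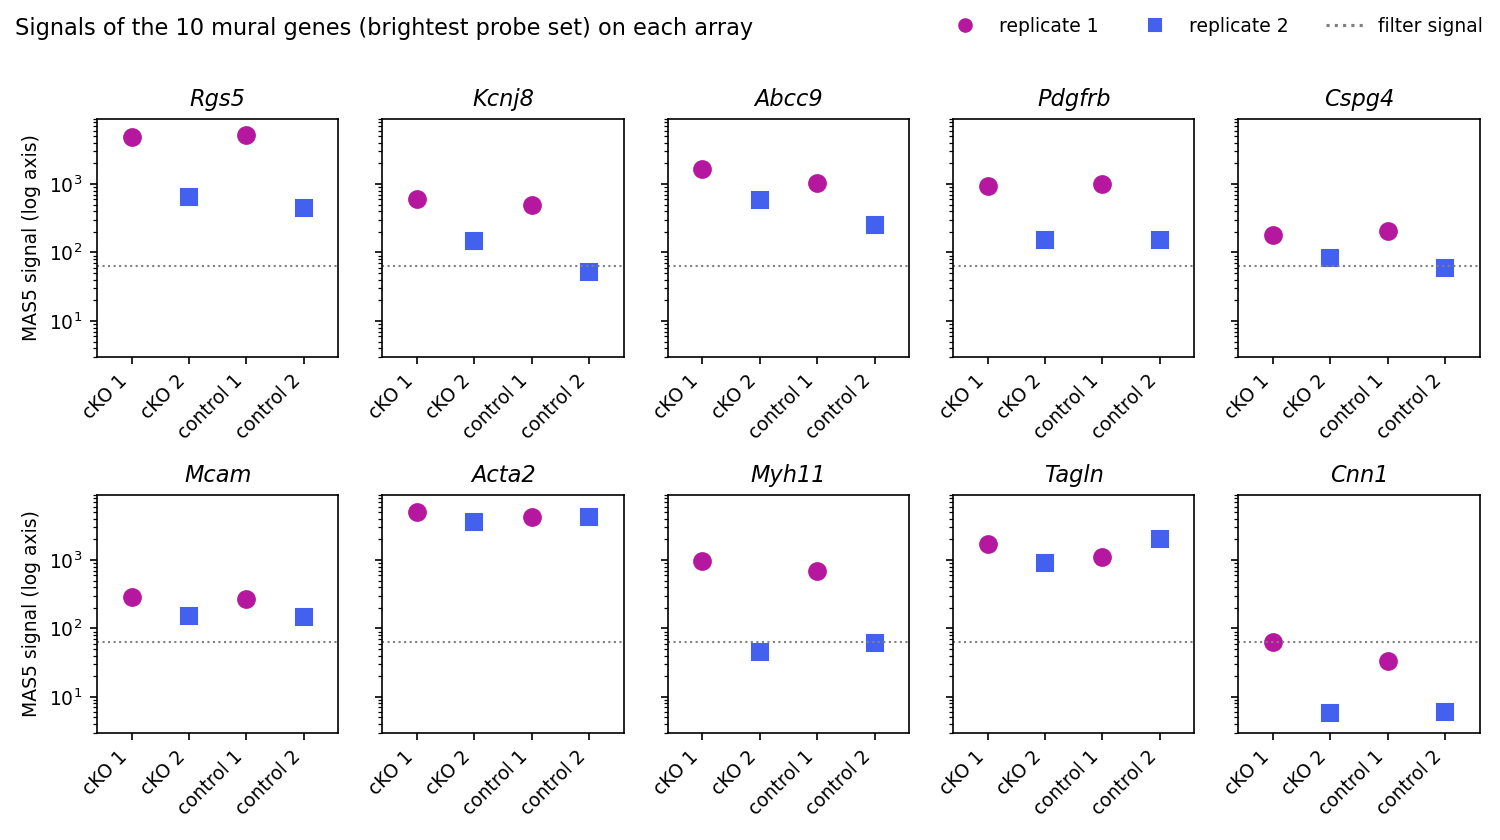
MAS5 signal (log axis) of the brightest probe set of each of the 10 genes on the 4 arrays, with circles for replicate 1, squares for replicate 2 and a dotted line at the filter signal of 63.9. For 7 genes both circles lie at least 2-fold above the square of their genotype, while Mcam, Acta2 and Tagln do not show this.

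Rgs5, the inhibitor of G protein signalling that marks pericytes, followed the number on all 4 of its probe sets. Its brightest probe set read 4828 on cKO replicate 1 and 5200 on control replicate 1, against 649 on cKO replicate 2 and 442 on control replicate 2. The arrays thus split by number and not by genotype, and the fold of replicate 1 over replicate 2 was 7.44 in cKO and 11.8 in control cells. The other 3 Rgs5 probe sets gave 11.7- to 15.4-fold in cKO and 11.2- to 17.6-fold in control cells. In a limma fit across 22519 probe sets, with replicate number as the only term and Benjamini-Hochberg adjustment, replicate 1 was higher by 3.22 on the log2 scale (SE 0.21, limma adjusted p = 5.22e-05), and all 4 Rgs5 probe sets were called. The same fit called 10 of the 15 tested member probe sets, where 2.12% of all tested were called higher on replicate 1 and 2.31% in either direction, and 5 member probe sets were not tested.

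The pore and the regulatory subunit of the mural potassium channel moved together. Kcnj8 read 601 on cKO replicate 1 and 502 on control replicate 1, against 148 on cKO replicate 2 and 52.3 on control replicate 2. The lowest array, control replicate 2, was below the filter signal of 63.9, and replicate 1 exceeded replicate 2 by 4.05-fold in cKO and 9.59-fold in control cells (log2 difference 2.62, SE 0.44, limma adjusted p = 0.00976). Abcc9, the next protein-coding gene to Kcnj8 on chromosome 6, read 1643 and 1046 on the cKO and control arrays numbered 1, against 580 and 254 on the cKO and control arrays numbered 2, by its brightest probe set. Its folds were 2.83 in cKO and 4.12 in control cells (log2 difference 1.77, SE 0.38, limma adjusted p = 0.0411). The Abcc9 call rests on the settings: among others it was lost with quantile normalization (limma adjusted p = 0.0919), and without cKO replicate 1 or control replicate 1 (limma adjusted p = 0.321 and 0.0717). The Kcnj8 call was lost without cKO replicate 1 (limma adjusted p = 0.0657). All 3 Abcc9 probe sets followed the number, with folds of 2.83 to 2.98 in cKO and 4.12 to 6.38 in control cells. A second Abcc9 probe set was called (limma adjusted p = 0.0199) and the third was not (limma adjusted p = 0.0557). The related genes Kcnj11 and Abcc8 did not follow the number. Kcnj11, a related pore, read 117 and 138 in cKO cells against 123 and 121 in control cells. Abcc8, a related receptor, stayed between 27.5 and 51, under the filter signal of 63.9 on every array, so its level says little.

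Of the pericyte surface proteins, the PDGF receptor gene Pdgfrb followed the number on both probe sets. The brighter read 946 on cKO replicate 1 and 1012 on control replicate 1, against 150 on cKO replicate 2 and 150 on control replicate 2. The genotypes were nearly level within each number, with 6.30-fold between numbers in cKO and 6.75-fold in control cells (log2 difference 2.70, SE 0.25, limma adjusted p = 0.000248). The dimmer probe set gave 7.41- and 10.7-fold. Cspg4, which encodes the NG2 proteoglycan, lay closest inside the 2-fold rule. Its brighter probe set read 182 on cKO replicate 1 and 205 on control replicate 1, against 83.6 on cKO replicate 2 and 58.8 on control replicate 2, and the limma fit did not call it (log2 difference 1.45, SE 0.33, limma adjusted p = 0.0543). Mcam, the adhesion molecule CD146, lay closest outside it: 287 on cKO replicate 1 and 269 on control replicate 1, against 150 on cKO replicate 2 and 147 on control replicate 2, or 1.91- and 1.83-fold. All arrays numbered 1 were still above all arrays numbered 2, and the difference was not called (limma adjusted p = 0.163). A second Cspg4 probe set, below the filter, also fell outside the rule with 1.80-fold in cKO and 3.33-fold in control cells.

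The 4 smooth muscle genes split. Myh11, the smooth muscle myosin heavy chain, had the largest fold of the 20 probe sets in cKO cells: 951 on cKO replicate 1 and 687 on control replicate 1, against 44.6 on cKO replicate 2 and 62.2 on control replicate 2. Both replicate 2 arrays were under the filter signal, and the folds were 21.3 in cKO and 11 in control cells (log2 difference 3.91, SE 0.31, limma adjusted p = 9.81e-05). A second, dim Myh11 probe set did not follow the number, with 1.51-fold in cKO and 5.71-fold in control cells, and was not tested. Cnn1 had the same order at low signal, 64.2 and 33.1 on the cKO and control arrays numbered 1, against 5.85 and 6.08 on the cKO and control arrays numbered 2, and was not tested because it did not pass the filter. Its folds of 11 in cKO and 5.44 in control cells rest on dim values.

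Acta2 did not follow the number. Its bright probe set read 4947 and 3562 on the cKO arrays and 4288 and 4190 on the control arrays, so the 4 arrays lay within 1.39-fold by number in either genotype (log2 difference 0.25, SE 0.13, limma adjusted p = 0.447). Both arrays numbered 1 were still above both numbered 2, though the control arrays were nearly level. The suffix of this probe set marks probes that can match transcripts of more than 1 gene, and related actins could contribute to its signal. The skeletal muscle actin gene Acta1 read 486 and 689 in cKO cells against 881 and 478 in control cells on its own probe set, and the enteric smooth muscle actin gene Actg2 stayed at or below 15.4. Their part in the Acta2 signal was not tested. A dim Acta2 probe set read 99.1 on cKO replicate 1 and 79.5 on control replicate 1, against 47.2 on cKO replicate 2 and 43.2 on control replicate 2, just outside the 2-fold rule at 2.10- and 1.84-fold, and the third stayed between 41.1 and 46.2 on all 4 arrays. The Acta2 probe sets therefore did not share 1 pattern.

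Tagln was the only member whose bright signal ran in opposite directions in the genotypes. It read 1716 and 898 on cKO replicates 1 and 2, and 1104 and 2013 on control replicates 1 and 2. Replicate 1 was 1.91-fold above replicate 2 in cKO cells, and in control cells replicate 2 was 1.82-fold above replicate 1. By number the log2 difference was 0.03 (SE 0.35, limma adjusted p = 0.981).

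**Figure D2:**
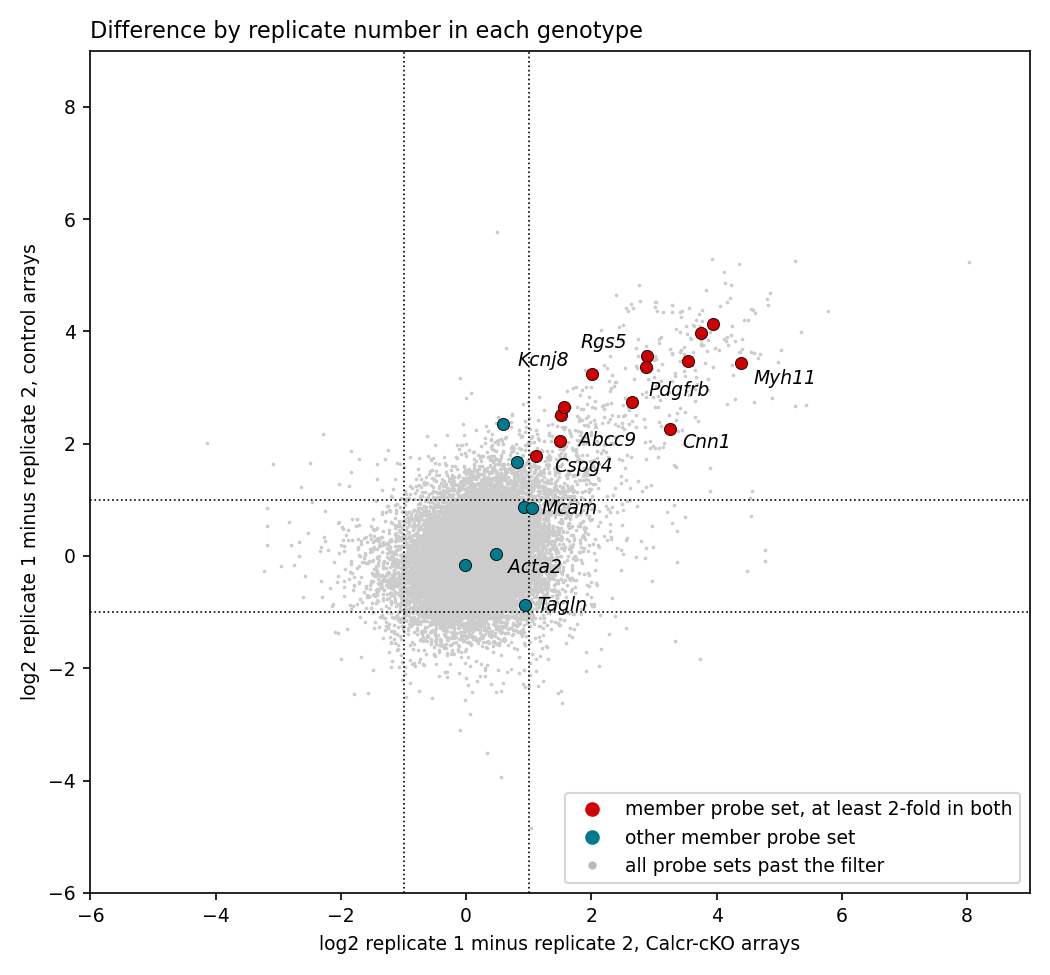
Log2 difference of replicate 1 minus replicate 2 in Calcr-cKO cells (horizontal) and in control cells (vertical), for the 20 member probe sets and, in grey, all 22519 probe sets past the filter; dotted lines mark 2-fold, and the brightest probe set of each gene is named. The 13 red probe sets lie at least 2-fold up in both genotypes, Acta2 lies near the centre, and Tagln is up in Calcr-cKO and down in control cells.

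Further mural genes, from lists written for the pericyte and the smooth muscle cell, followed the number in part. Of 26 measured pericyte genes, 9 followed it upward, against 4.96% of 18193 genes, and 1, Zic1, downward. The limma fit called 6 of the 19 that were tested, all higher on replicate 1, against 2.12% of all tested probe sets. The brightest of the list did not follow it upward, and Notch3, Heyl and Des also stand in the satellite cell list used here: the Notch receptor gene Notch3 read 3128 and 2575 on the cKO arrays against 2700 and 3709 on the control arrays, and the Notch target Heyl 1127 and 1136 on the cKO arrays against 1008 and 2420 on the control arrays. S1pr3, a sphingosine phosphate receptor gene, and the intermediate filament gene Des stayed within 1.46- and 1.43-fold by number in either genotype. The oxidoreductase gene Steap4 was called (log2 difference 1.42, limma adjusted p = 0.0388) with 4.01-fold in cKO but 1.80-fold in control cells, and Vtn, which encodes vitronectin, was 2.97-fold higher on replicate 1 in cKO cells and 0.93-fold in control cells. Picked after their values were seen, the transcription factor gene Ebf1 read 311 on cKO replicate 1 and 255 on control replicate 1, against 27.0 on cKO replicate 2 and 18.4 on control replicate 2, and the integrin gene Itga1 541 and 362 on the cKO and control arrays numbered 1, against 62.4 and 52.3 on the cKO and control arrays numbered 2.

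Of 27 other smooth muscle genes, 6 followed the number upward, against 4.96% of 18193 genes, and 0 downward. Where 2.12% of all tested probe sets were called higher on replicate 1, 2 of the 19 tested here were called. These, named after their values were seen like Myocd, Zic1 and Mbp, were the myosin light chain kinase gene Mylk (2256 and 1867 on the cKO and control arrays numbered 1, against 687 and 684 on the cKO and control arrays numbered 2) and the myosin light chain gene Myl9 (1418 and 1213 on the cKO and control arrays numbered 1, against 169 and 358 on the cKO and control arrays numbered 2). The 6 brightest of the list, 5 cytoskeletal genes and a transcription factor gene, were not called. Of these the caldesmon gene Cald1, the transgelin relative Tagln2 and the serum response factor gene Srf had log2 differences by number of 0.15, 0.09 and -0.02. The tropomyosin genes Tpm2 and Tpm1 were at 0.84 and 0.78 and the vinculin gene Vcl at 0.67, with limma adjusted p = 0.0854 for Tpm2, the smallest of the 6. Myocd, which encodes the coactivator myocardin that drives smooth muscle genes with Srf, was dim on the arrays numbered 2, at 189 on cKO replicate 1 and 99.3 on control replicate 1, against 9.48 on cKO replicate 2 and 10.2 on control replicate 2. It did not pass the filter.

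In the PDGF system the ligand genes Pdgfb and Pdgfd followed the number and did not pass the filter, with Pdgfb at 53.7 on cKO replicate 1 and 69.0 on control replicate 1, against 15.0 on cKO replicate 2 and 19.4 on control replicate 2. Pdgfa, a ligand of the related receptor, did not follow it: it read 772 and 781 in cKO cells and 675 and 621 in control cells. Pdgfc stayed within 1.09-fold by number in each genotype. Pdgfra, the receptor of fibro-adipogenic cells, was dim on every array, at 50.9 and 58.2 in cKO cells against 40.8 and 36.0 in control cells.

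Endothelial transcripts moved with the number alongside the mural ones. Over the 6 pericyte members the median fold of replicate 1 over replicate 2 was 3.44 in cKO and 5.44 in control cells. Over 20 endothelial genes it was 10.0 in cKO and 12.0 in control cells. Of these 20 genes 19 followed the number, against 4.96% of 18193 genes. The summed signal of the pericyte members was 8488 on cKO replicate 1 and 8235 on control replicate 1, against 1762 on cKO replicate 2 and 1104 on control replicate 2. That of the endothelial list was 24401 on cKO replicate 1 and 26622 on control replicate 1, against 4365 on cKO replicate 2 and 3671 on control replicate 2. The VE-cadherin gene Cdh5 read 1060 and 1044 on the cKO and control arrays numbered 1, against 110 and 79.7 on the cKO and control arrays numbered 2, and Tie1, another endothelial receptor gene, 175 and 168 against 3.82 and 5.27. The gap between the lists was not tested, and the part of endothelial cells in the mural signals was not tested.

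The lists of other cell types held few genes that followed the number. Over all 18193 genes 4.96% did so upward, so counts of 0 or 1 in lists this short do not set them apart from all genes. Of 16 satellite cell genes 0 followed the number, with summed signals of 31226 and 31845 on the cKO arrays and 31356 and 41241 on the control arrays. In the fibro-adipogenic list 1 of 14 measured genes did, with sums of 24605 and 28484 against 22366 and 28627, and the lowest signal of the matrix gene Dcn was 2313. In the muscle fibre list 0 of 16 did, with sums of 3955 and 5206 against 6801 and 3645. Of 20 leukocyte genes 0 did, with sums of 1860 and 770 on the cKO arrays against 1694 and 3337 on the control arrays. The pan-leukocyte gene Ptprc was at or below 39.5 on every array, but 7 of the 20 genes passed the filter. The Schwann cell list had 1 of 5 measured, Mbp.

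**Figure D3:**
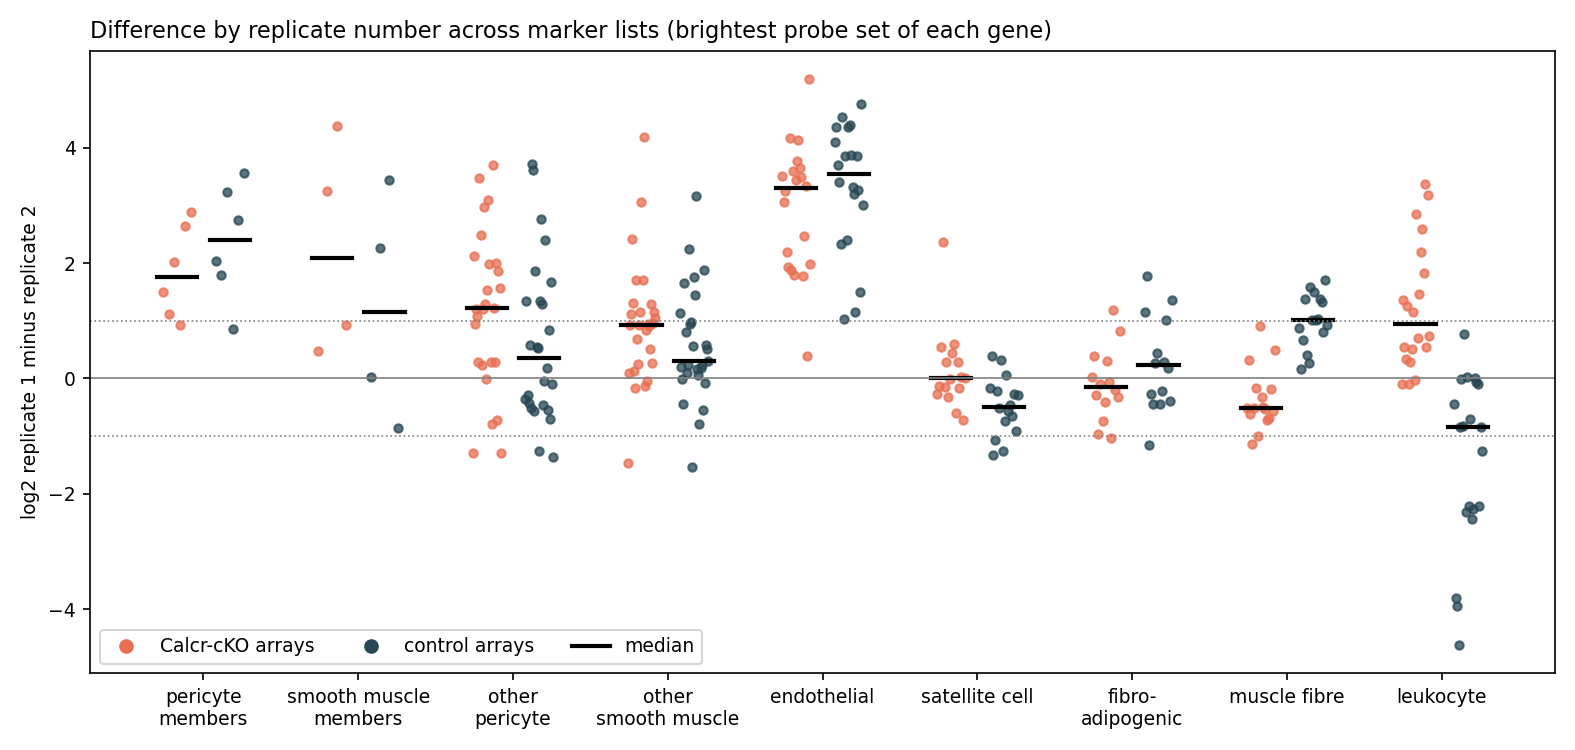
Log2 difference of replicate 1 minus replicate 2 for the brightest probe set of each gene in 9 lists, left in each pair for Calcr-cKO arrays and right for control arrays, with medians as bars and dotted lines at 2-fold. Endothelial genes lie highest in both genotypes, and pericyte members lie above 2-fold by their medians. The median of the satellite cell genes lies near 0 for Calcr-cKO arrays and at -0.49 for control arrays.

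Between cKO and control cells no member passed the test. The limma fit with genotype as its only term called 0 of the 15 tested member probe sets at an adjusted p under 0.05, as it did 0% of all 22519, and 0 of the 15 had an unadjusted limma p under 0.05, against 0.724% of all. The smallest unadjusted limma p of a member was 0.234, for Abcc9. This fit counts the differences between numbers as noise, so for most members its SE was far above the difference. Rgs5 had a log2 difference of 0.22 (SE 1.21) and Myh11 one of -0.0008 (SE 1.49). For Acta2, which did not follow the number, it was -0.01 with an SE of 0.18, with signals of 4255 ± 979 in cKO and 4239 ± 69.5 in control cells (SD, n = 2 each). Tagln read 1307 ± 579 in cKO and 1558 ± 642 in control cells (SD, n = 2 each), a log2 difference of -0.26 with an SE of 0.39. Permuting 2 against 2 samples exactly can give no 2-sided p below 0.333, so no single value can pass by that test. The cKO and control arrays overlapped for 19 of 20 member probe sets. The exception was the dim Myh11 probe set, at 65.7 and 43.5 in cKO cells against 40.1 and 7.03 in control cells. Among all probe sets, 9.27% separated the genotypes with cKO on top and 16.5% with cKO below, so 1 of 20 above and 0 of 20 below is no more than the background.

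Set side by side within a replicate number, the channel genes were higher in cKO cells in both pairs of arrays. Abcc9 was 1.57-fold higher in cKO than in control cells on its brightest probe set between the arrays numbered 1, and 2.29-fold higher between those numbered 2. Its other 2 probe sets gave 1.18- and 1.49-fold between the arrays numbered 1, and 2.35- and 3.20-fold between those numbered 2. Kcnj8 was 1.20-fold higher between the arrays numbered 1 and 2.83-fold higher between those numbered 2, where control replicate 2 was below the filter signal. By the brightest probe set 3 of 10 genes were higher in cKO within both numbers, namely Kcnj8, Abcc9 and Mcam, the last by 1.07- and 1.02-fold. Of the 20 member probe sets 11 were higher within both numbers and 0 lower within both, where 17.3% of all probe sets were higher and 28.3% lower. Of these 11, 6 belong to Rgs5 and Abcc9, and this count was chosen after the data were seen. Several of these differences were small, down to a near-level ratio for 1 Rgs5 probe set, and probe sets of 1 gene share their transcript. Each pair is 1 array against 1, with no replicate, so these are values and not calls. The other 7 genes changed sides between the numbers by their brightest probe set. For Myh11, Tagln, Acta2 and Cnn1 cKO was the higher between the arrays numbered 1 only, as for Tagln with 1.55-fold there and 0.45-fold between those numbered 2. For Rgs5, Cspg4 and Pdgfrb it was the higher between the arrays numbered 2 only, as for Rgs5 with 0.93-fold between the arrays numbered 1 and 1.47-fold between those numbered 2, and Pdgfrb was nearly level in both.

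**Figure D4:**
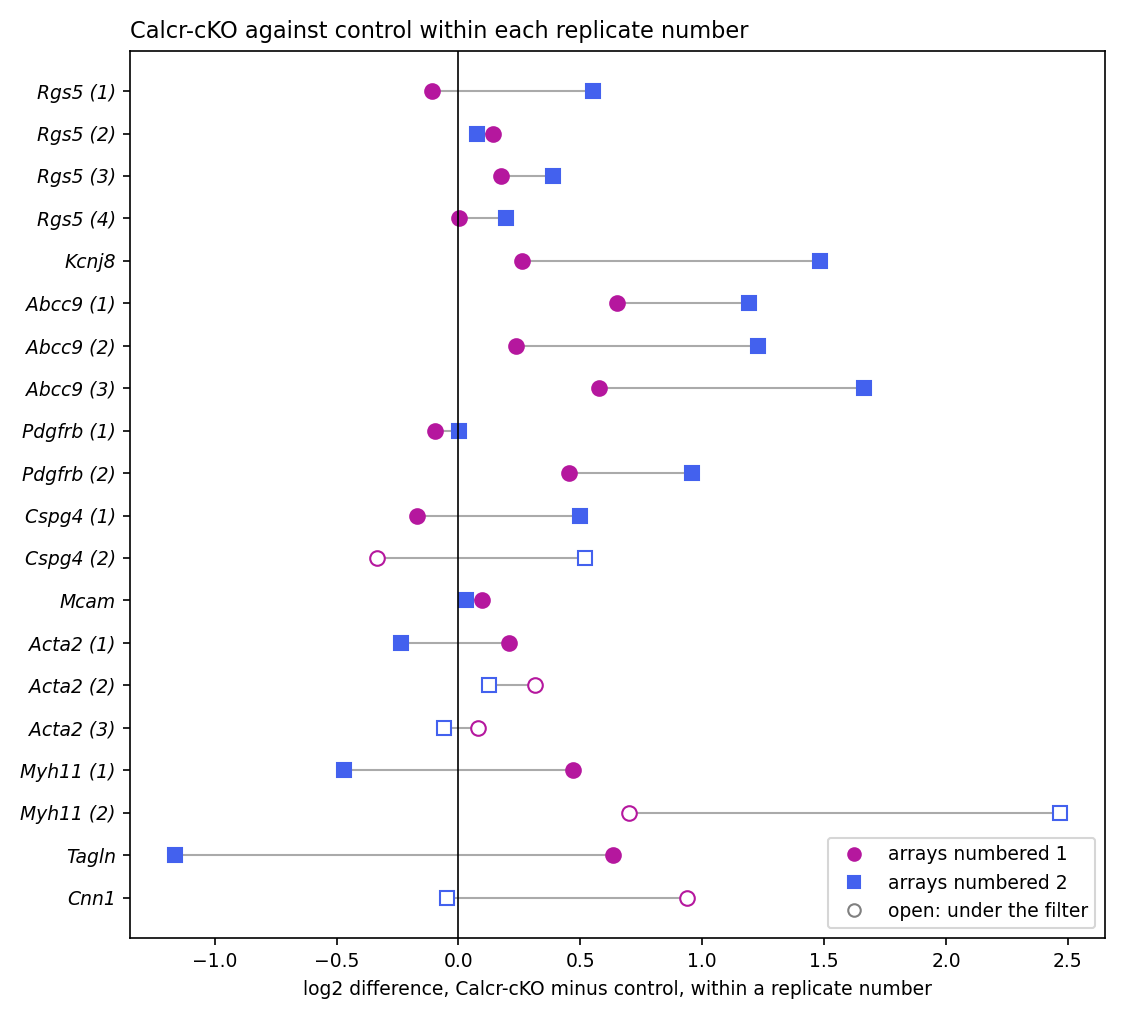
Log2 difference of Calcr-cKO minus control for the 20 member probe sets, circles between the arrays numbered 1 and squares between those numbered 2; probe sets of a gene are counted from its brightest, and open symbols did not pass the filter. Kcnj8 and all 3 Abcc9 probe sets lie right of 0 in both pairs, while the brightest probe sets of 7 genes, Tagln and Myh11 among them, lie on both sides of it.

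The genes whose profile over the 4 arrays lay closest to a member were named by the Euclidean distance between log2 values centred on their mean, over 4 arrays and thus with little to tell genes apart. Closest to the brightest Rgs5 probe set were Ceacam1 (distance 0.11), Jam2 (0.12), Rasgrf2 (0.15), Sele (0.15) and Ccnd2 (0.18). Of these Jam2, a junctional adhesion molecule gene, read 648 on cKO replicate 1 and 656 on control replicate 1, against 88.7 on cKO replicate 2 and 54.1 on control replicate 2, and Sele encodes the endothelial E-selectin. Closest to Acta2 were Eif5b, Ercc6l2, Homer1, Entr1 and Ywhab, at distances of 0.01 to 0.02, all of them nearly flat over the arrays.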

How the data were processed

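Total RNA of freshly sorted YFP-positive cells was extracted with a column kit, labelled with biotin and hybridised to 1 array a sample, per the labels' protocols. The authors deposited MAS5 signals, linear intensities with 1 value for each probe set on each array, as named in the submitters' processing notes. Their scaling target is unknown here, and detection calls were not used here. Probe sets were named from the platform's annotation: 34945 had 1 symbol, 932 several and 9160 none, and 64 were AFFX controls, which were left out. Entrez identifiers of 34741 were found in the RefSeq gene table, which changed 0 symbols, and no member shares a probe set with another symbol.

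Tests ran on log2(value + 1) with no normalization added, a scale on which changes of dim probe sets come out too small. Folds are ratios of the deposited signals. Probe sets were tested when their mean log2 value reached the median over all probe sets (a signal of 63.9), which kept 22519, 15 of them members. limma 3.58.1 in R 4.3.3 (lmFit, eBayes with an intensity trend, 2-sided, Benjamini-Hochberg at 0.05) was fitted with genotype as the only term and, separately, with replicate number as the only term; each fit had 2 residual and, for genotype, 5.32 prior degrees of freedom. The members and gene lists were chosen with earlier results of these data known. The named genes are all members, the 6 brightest of each further mural list, fixed markers of other cell types, and the 5 genes closest to Rgs5 and Acta2. Actg2 was named besides, as a related actin, and other genes picked later are described so. The fit was tested on simulated data of 2 arrays against 2, where it recovered 31.2% of 2-fold and 96.4% of 4-fold changes, with 11 false calls on average. The simulated noise was that left after both genotype and number. It therefore does not show what the fit by genotype could recover, since that fit counts the differences between numbers as noise. Tried besides were a pseudocount of 32, centring of arrays on their median, quantile normalization, testing without the filter or with one at the 75th percentile, no intensity trend, a second term, other fold rules, leaving out each array and, chosen after the data were seen, each genotype alone. The count of members higher in cKO within both replicate numbers was also chosen after the data were seen.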

Additional observations from a re-analysis of the deposited data

Results flagged for a closer look

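Tagln, the transgelin gene, differed by replicate number in opposite directions in the genotypes: replicate 1 minus replicate 2 was 0.934 on the log2 scale in cKO cells and -0.865 in control cells. The difference between the genotypes was not tested, since each rests on 1 array against 1.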

How the results depend on the processing

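Of the members' own counts, the 13 probe sets following the number became 12 with quantile normalization, with centred arrays and among probe sets past the filter, 17 at a 1.5-fold and 9 at a 3-fold rule, 14 in cKO and 15 in control cells alone, and 7 when only the brightest probe set of each gene was counted, which has fewer to count. Centring moved the median of replicate 1 minus replicate 2 over all tested probe sets to -0.15, against 0.04 as deposited. A filter at the 75th percentile left the brightest probe sets of Kcnj8 and Myh11 untested, both of them called in the main fit, so it also has fewer to count. The limma count by number, 10 member probe sets, was 6 with the filter at the 75th percentile and ranged from 7 to 12 as each array was left out; over all probe sets 521 calls became 141 with that filter and 252 to 1755 without single arrays, where the lone sample of a pair was assumed to vary like the other pair. The Abcc9 call by number (brightest probe set) was lost with quantile normalization, centring, no filter, the stricter filter and no trend, and without control replicate 1 or cKO replicate 1 (limma adjusted p = 0.0664 to 0.321). The Kcnj8 call was lost with no trend and without cKO replicate 1 (limma adjusted p = 0.0592 and 0.0657), while Cspg4 was called with a pseudocount of 32, with genotype as a second term and without control replicate 2 or cKO replicate 2 (limma adjusted p = 0.00307 to 0.0457). By number Tagln turned to -0.15 with centred arrays.

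Between genotypes no alternative called a member. Over all probe sets the count of 0 was 5 with the replicate block, and 0 to 5 as each array was left out. Same-numbered arrays deviated together (correlation of deviations 0.434 across probe sets), but with 2 pairs and no label that ties the numbers, the samples share only a number; under the replicate block 0 member probe sets were called. Of the 1 probe set without overlap, 0 remained among those past the filter or the brightest of each gene. Members higher in cKO within both numbers numbered 12 with quantile normalization and 13 with centred arrays (23% and 24.2% of all probe sets), against 11 as deposited, and this count and both alternatives were chosen after the data were seen. The genotype difference turned for Pdgfrb with centring (0.044), for Acta2 with quantile normalization (0.055) and centring (0.078), and for Myh11 with quantile normalization (0.058), centring (0.092) and a pseudocount of 32 (0.077). Leaving out single arrays unbalances the numbers and moved it from -1.55 to 2.0 for Rgs5, -0.75 to 2.49 for Kcnj8, -0.10 to 1.94 for Abcc9, -1.42 to 1.32 for Pdgfrb, -0.73 to 1.06 for Cspg4, -0.40 to 0.53 for Mcam, -0.25 to 0.22 for Acta2, -2.19 to 2.19 for Myh11 and -0.73 to 0.20 for Tagln; by number Tagln ranged from -0.55 to 0.62.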
